A study of Sus scrofa with 25 samples.

Results

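The 8 muscle libraries of lowest gene-assigned read share were compared with the 8 of highest share, in a series of 25 pig muscle libraries. The share is the number of reads assigned to annotated pig genes divided by all reads listed in a library's file, that is those assigned to genes or spike-ins, those outside annotated genes, those ambiguous between genes and those aligned to several places. The 16 libraries were picked by this measured value alone, whatever the diet, after 1 library (animal 27 of the highest dose) had been left out by rule, and the remaining 8 libraries lay between both sets. The sets are called the low set and the high set here, and every difference is given as low minus high.

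Each library came from the muscle of 1 pig out of a cross of Polish Large White sows with Landrace boars. From day 85 of life and for 90 days the pigs ate feeds that differed in vitamin D3, with 0 IU/kg in the control group (8 pigs), 5000 IU/kg in D5000 (8 pigs) and 10000 IU/kg in D10000 (9 pigs). Littermates were spread over the 3 diets, and which pigs shared a litter was not given in the sources used here, so littermates could stand in either set. RNA integrity, RNA input and the muscle sampled were not given either, so the share is the only description of library quality used.

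Sequencing of 3′ tags primes on the poly(A) tail and reads the end of each mRNA, so a transcript yields about 1 tag whatever its length. A counting program then sorts each aligned read, and reads in introns, unannotated 3′ ends or intergenic DNA fall outside annotated genes while reads from repeats, gene copies and ribosomal RNA align to several places. In skeletal muscle a large part of the mRNA comes from contractile proteins, from enzymes of glycolysis and from the respiratory chain, whereas plasma proteins are made by the liver.

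In the low set the share ran from 24.9% (D5000 animal 18) and 28.4% (D10000 animal 2) through 38.2% (D10000 animal 7), 43.8% (D5000 animal 11), 45.1% (control animal 23), 47.6% (D10000 animal 21) and 50.3% (control animal 3) to 52.0% (D5000 animal 6). In the high set it ran from 62.1% (D10000 animal 26) through 63.3% (D10000 animal 13), 63.9% (control animal 17), 65.0% (D10000 animal 20), 65.5% (D5000 animal 25 and D10000 animal 30) and 68.3% (control animal 16) to 70.6% (control animal 14). The low set was thus spread 10.0 percentage points (SD, n = 8) around a mean of 41.3%, and the high set 2.76 points around 65.5%. The nearest libraries outside the sets had shares of 54.9% (D5000 animal 29) and 60.3% (D5000 animal 15). By diet, the low set held 2 control, 3 D5000 and 3 D10000 libraries, and the high set 3 control, 1 D5000 and 4 D10000 libraries.

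The reads that the low set lacked in genes lay in both other large classes. Reads outside annotated genes took 25.8% to 38.1% in the low set (median 34%) and 16.3% to 21.8% in the high set (median 20.7%). Reads aligned to several places took 18.5% to 38.7% in the low set (median 21.4%) and 12.5% to 16.7% in the high set (median 13.9%). Both classes are terms of the share that chose the libraries, so these values are a description and were not tested. The stacked plot of read classes shows that the 2 lowest libraries stand apart in the reads aligned to several places, which took 38.7% of D5000 animal 18 and 34.1% of D10000 animal 2 and at most 23.3% in the other libraries of the low set.

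**Figure D1:**
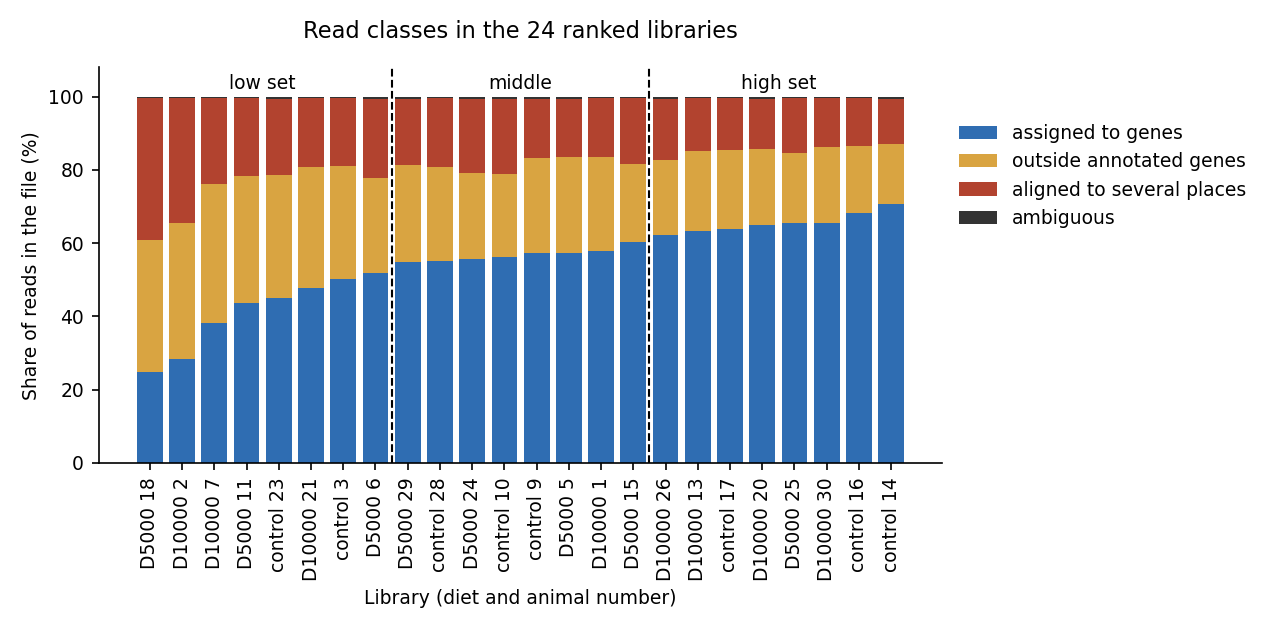
Share of each read class (%, vertical axis) in the 24 ranked libraries, ordered by the share assigned to genes from 24.9% to 70.6%, with dashed lines between the low set, the middle libraries and the high set. The part outside annotated genes and the part aligned to several places are both larger on the left.

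Gene counts per library, the numerator of the share, ran from 3310507 to 7118691 in the low set and from 7316780 to 15177976 in the high set. All reads listed per library overlapped, with 11186369 to 17404665 in the low set and 10357549 to 24430641 in the high set. All 16 libraries carried skeletal muscle transcripts: the list of skeletal muscle fibre markers took 8.19% to 25.0% of gene counts in the low set and 10.1% to 26.3% in the high set. Gene reads are themselves a term of the share, so it was recomputed without each of the 10028 genes tested in turn, and the removal of any single gene left both sets as they were (0 genes changed them). Most single genes hold too few reads to change the order, so this does not address the effect of many genes together. Taking out the 10 most abundant genes together replaced 1 library of the low set and 0 of the high set, and ranking animal 27 with the others replaced 0.

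Of the 10028 genes tested with edgeR's quasi-likelihood test, 1499 (14.9%) were higher and 1066 (10.6%) lower in the low set at an adjusted p of 0.05. The median log2 fold change was 1.30 over the genes called higher and -1.03 over those called lower, and -0.02 over all genes tested. For 268 genes (2.67%) every library of the low set lay above every library of the high set, and for 200 genes (1.99%) below. After the counts of every library had been thinned to 3310507 gene counts, the depth of the shallowest library, 1515 genes were called higher and 983 lower, with 1416 of the 1499 and 954 of the 1066 called again. Log2 changes are given ± SE of the fit, and levels as TMM-scaled CPM (counts scaled to library size). With diet as a further term 1146 and 907 of them were called again.

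The split between both directions depended on the scaling. TMM, the scaling used here, and the DESeq2 size factors gave the same split (58.4% of calls higher under both), whereas dividing by the total gene count alone gave 2989 genes higher and 156 lower, that is 95.0% higher, because the median of all genes moved to 0.54. As the plot of fold changes under both scalings shows, the whole distribution moved by about the same step. Of the genes named below, NEB, DES, GAPDH, GYS1, COX3, ND4, RPLP0, EEF2, PSMD14, CNN1 and ESAM kept their direction with gene totals alone and missed the threshold (adjusted p 0.0509 to 0.357). Directions below are relative to the median gene, and a list whose median changes sign with gene totals alone is named as such. A second limit concerns liver transcripts: with their mean log2 CPM as a covariate, edgeR called 0 genes higher and 0 lower (830 of 12270 at an unadjusted p under 0.05, smallest adjusted p 0.0827). That mean ran from 7.93 to 8.99 in the low set and from 6.70 to 8.23 in the high set, so within these 16 libraries the liver list and the share cannot be told apart.

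**Figure D2:**
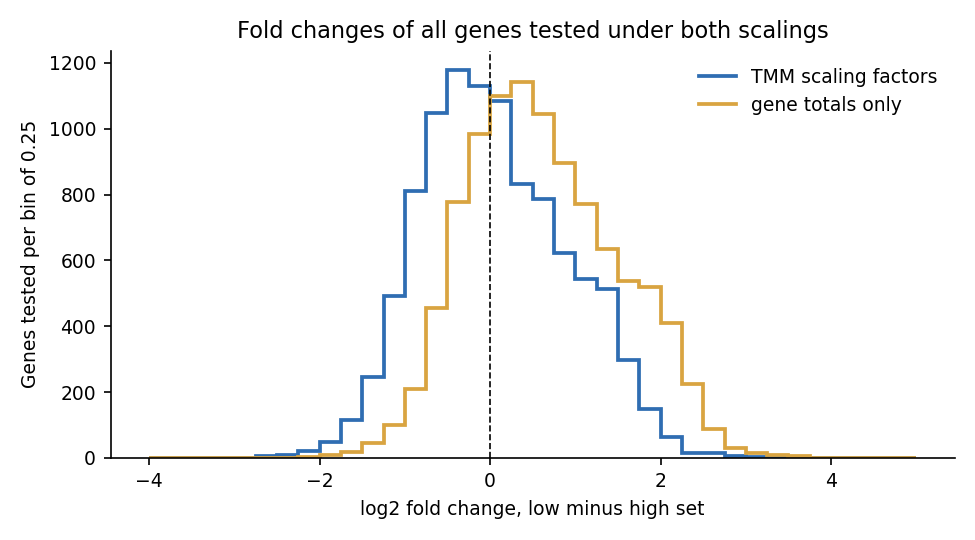
Number of the 10028 genes tested (vertical axis) in each bin of log2 fold change, low minus high set (horizontal axis), with TMM scaling factors and with gene totals only. The median gene lies at -0.02 with TMM and at 0.54 with gene totals only.

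Transcripts best known from liver were the list that stood highest in the low set. Of 22 tested members 20 were higher and 0 lower (14.9% and 10.6% of all genes tested). The median log2 change was 1.46, against -0.02 over all genes tested, and 8 of the 22 had sets that did not overlap (2.67% of all genes tested in this direction). ALB, serum albumin, stood at 4808 to 12729 CPM (median 9009.8) in the low set and 2183 to 4384 (median 2996) in the high set, with no overlap (log2 change 1.57 ± 0.25, adjusted p = 0.000132). CYP2E1, a cytochrome P450 of ethanol and drug metabolism, stood at 385 to 866 CPM (median 646) in the low set and 135 to 311 (median 185) in the high set (log2 change 1.76 ± 0.24, adjusted p = 5.52e-05). AMBP, the precursor of alpha-1-microglobulin and bikunin, stood at 234 to 632 CPM (median 382) in the low set and 65.0 to 169.6 (median 119) in the high set (log2 change 1.91 ± 0.25, adjusted p = 5.31e-05). In each of these 3 genes the lowest library of the low set was above the highest of the high set. Apolipoproteins, the protein parts of plasma lipoproteins, moved less evenly. APOA1 stood at 237 to 1488 CPM (median 766) in the low set and 316 to 921 (median 347) in the high set (log2 change 0.94 ± 0.31, adjusted p = 0.0251), with overlapping sets, and its adjusted p lay between 0.0507 and 0.0607 when D10000 animal 7, D10000 animal 13, D10000 animal 20, D5000 animal 25, control animal 16 or control animal 14 was left out. APOC3 did not pass the test (log2 change 0.60 ± 0.56, adjusted p = 0.479), at 47.7 to 833 CPM (median 172) in the low set and 81.1 to 733 (median 103) in the high set. It passed the edgeR test with 6 libraries against 6 (log2 change 1.46, adjusted p 0.0256) and with 12 against 12 (1.48, adjusted p 0.0472). Leaving out 1 library at a time gave APOC3 changes of 0.23 to 1.25.

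Summed over the list, liver transcripts took 1.71% to 4.99% of gene counts in the low set (median 3.52%), 0.956% to 2.77% in the middle libraries and 0.509% to 1.41% in the high set (median 0.853%). The sets did not overlap over all diets, from which it follows that they could not overlap within a diet. The values by diet are given as a description. In the control group the 2 low libraries had 2.29% and 3.34% and the 3 high libraries 0.509% to 0.879%. In D5000 the 3 low libraries had 1.71% to 4.86% and the single high library 0.545%, and in D10000 the 3 low libraries had 2.63% to 4.99% and the 4 high libraries 0.848% to 1.41%. Relative to all reads in the file, on the same scale as CPM, the list stood at 8866 to 19083 in the low set and 3567 to 8755 in the high set. The sets did not overlap on this scale either. Without the 2 libraries of lowest share 20 of 22 members were again higher (median 1.36). With gene totals alone the count was also 20 (median 2.10).

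Other genes with the smallest p among those higher in the low set were HPGD, KMT2C, FMR1, MTMR7, FNDC3A, DSG2, ABCC2, BCO2, TDO2 and ABCG5. In all 10 the sets did not overlap, against 2.67% of all genes tested. The 10 were picked by the p of this same comparison, so the lack of overlap follows largely from that choice. HPGD, which inactivates prostaglandins, stood at 44.2 to 115 CPM (median 96.5) in the low set and 18.4 to 30.5 (median 25.3) in the high set (log2 change 1.88 ± 0.22, adjusted p = 3.81e-05). TDO2, the first enzyme of tryptophan breakdown, stood at 217 to 425 CPM (median 309) in the low set and 67.1 to 149 (median 96.4) in the high set (log2 change 1.67 ± 0.22, adjusted p = 4.87e-05). ABCG5, a subunit of the sterol exporter of liver and gut, stood at 18.1 to 63.5 CPM (median 24.7) in the low set and 1.79 to 8.11 (median 5.93) in the high set (log2 change 2.46 ± 0.32, adjusted p = 5.31e-05). ABCC2, an export pump for conjugated compounds, and BCO2, a mitochondrial carotenoid cleavage enzyme, were higher by log2 fold changes of 1.70 ± 0.22 and 1.89 ± 0.25. None of these 5 was a member of the liver list, although TDO2, ABCG5 and ABCC2 are known for high levels in liver. The remaining 5 are not known chiefly from the liver. KMT2C, a histone H3 methyltransferase, stood at 58.0 to 189.5 CPM (median 99.7) in the low set and 17.3 to 37.1 (median 26.4) in the high set (log2 change 2.15 ± 0.26, adjusted p = 3.81e-05). FMR1, an RNA-binding regulator of translation, stood at 69.0 to 158 CPM (median 101) in the low set and 23.3 to 44.97 (median 33.6) in the high set (log2 change 1.795 ± 0.22, adjusted p = 3.81e-05). MTMR7, a phosphoinositide phosphatase, had the largest change among the 10 (log2 change 2.66 ± 0.33, adjusted p = 3.81e-05), at 9.46 to 26.8 CPM (median 16.6) in the low set and 2.31 to 3.94 (median 2.56) in the high set. DSG2, a desmosomal cadherin, and FNDC3A, a protein with fibronectin type III domains, were higher by 1.78 ± 0.22 and 1.71 ± 0.21. The panels of CPM by set show that the middle libraries lie between both sets for ALB, HPGD and FMR1, as medians.

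Among the genes lower in the low set, those with the smallest p included NFIX, PACSIN3, CSTB, TEAD4, NDUFB4, PIGC, MYL12A, SCMH1 and TSPAN31. NFIX, a nuclear factor I transcription factor of myogenesis, stood at 76.2 to 268 CPM (median 177) in the low set and 463 to 877 (median 684) in the high set (log2 change -1.96 ± 0.25, adjusted p = 4.62e-05). TEAD4, a transcription factor of the Hippo pathway with a role in muscle differentiation, stood at 18.8 to 50.1 CPM (median 30.1) in the low set and 72.3 to 103 (median 87.0) in the high set (log2 change -1.40 ± 0.22, adjusted p = 9.57e-05). Neither gene overlapped between the sets. PACSIN3, a membrane-shaping protein enriched in muscle, stood at 128 to 288 CPM (median 216) in the low set and 434 to 712 (median 549) in the high set (log2 change -1.37 ± 0.21, adjusted p = 7.35e-05). MYL12A, a regulatory myosin light chain of non-muscle type, stood at 48.0 to 257 CPM (median 152) in the low set and 339 to 1649 (median 528) in the high set (log2 change -2.23 ± 0.36, adjusted p = 0.00013), and MYL12B, a near-identical copy, could share its reads. CSTB, an inhibitor of cathepsins, and NDUFB4, a subunit of respiratory complex I, were lower, with log2 fold changes of -1.39 ± 0.22 and -1.36 ± 0.22. PIGC, an enzyme of membrane anchor synthesis, had -1.30 ± 0.21, and TSPAN31, a tetraspanin, -1.52 ± 0.25. SCMH1, a Polycomb group protein, had -1.77 ± 0.29 and was the only one of these 9 whose sets overlapped. These genes too were picked by the p of this comparison, and 1.99% of all genes tested were lower without overlap.

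**Figure D3:**
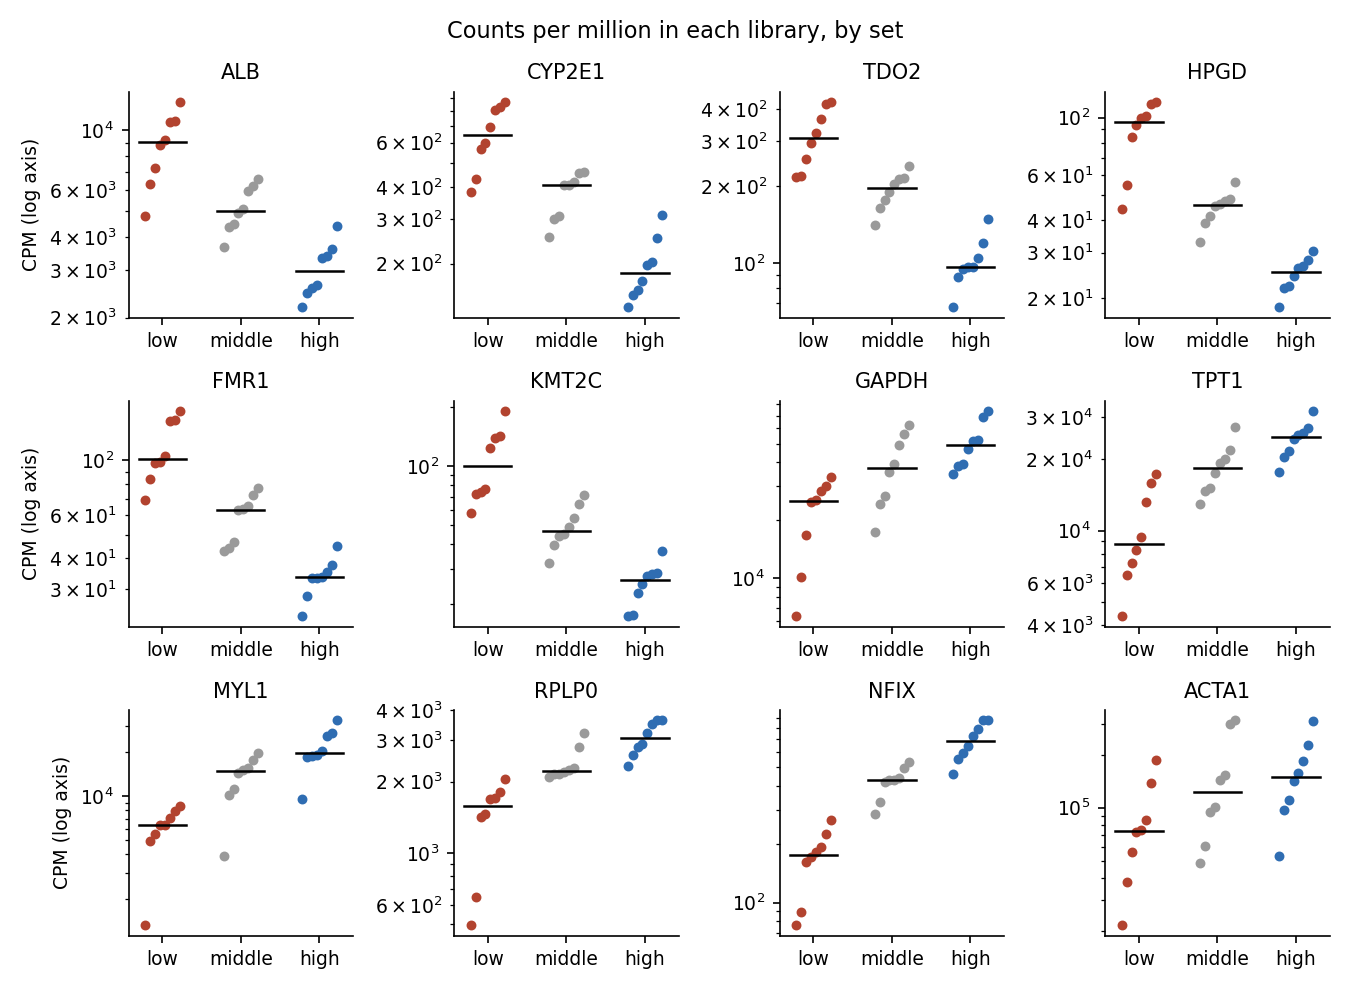
TMM-scaled CPM (log axes that differ between panels) of 12 genes, with 1 point per library in the low set, the middle libraries and the high set, and a line at each median. ALB, CYP2E1, TDO2, HPGD, FMR1 and KMT2C lie higher in the low set, and GAPDH, TPT1, MYL1, RPLP0 and NFIX lower, without overlap between the low and high sets; the ACTA1 sets overlap.

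Over the 4 lists of muscle fibre genes, members were called lower and, with 1 exception, not higher. Of the skeletal muscle fibre markers 8 of 14 were lower and 0 higher (median -1.19), with 10.6% of all genes tested called lower. CKM, the muscle creatine kinase, stood at 1734 to 11449.7 CPM (median 8204) in the low set and 7577 to 28128 (median 21429) in the high set (log2 change -1.36 ± 0.33, adjusted p = 0.00423), with overlap of the sets. MYOZ1, a Z-disc protein of fast fibres, stood at 445 to 3525 CPM (median 2112) in the low set and 5070.1 to 7822 (median 6069.7) in the high set (log2 change -1.47 ± 0.32, adjusted p = 0.00162), without overlap. TCAP, the telethonin that caps titin at the Z-disc, and CKMT2, the mitochondrial creatine kinase, had log2 fold changes of -1.77 ± 0.37 and -1.27 ± 0.26. ACTA1, skeletal actin, did not pass the test (log2 change -0.87 ± 0.40, adjusted p = 0.116). It stood at 21467 to 186110 CPM (median 73808) in the low set and 53179.6 to 310388 (median 148681) in the high set, the adjusted p was 0.0411 without D10000 animal 21, and DESeq2 gave 0.0461.

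Both fibre types were represented among the lower genes, with 10.6% of all genes tested called lower and 14.9% higher. Of the slow-twitch contraction list 7 of 10 were lower and 0 higher (median -1.34), and 3 of 10 with gene totals alone. TNNT1, the slow troponin T, stood at 171 to 1047 CPM (median 636) in the low set and 455 to 3469.7 (median 1563) in the high set (log2 change -1.46 ± 0.38, adjusted p = 0.00647). MYBPC1, slow myosin-binding protein C, stood at 66.0 to 369 CPM (median 222) in the low set and 331 to 974 (median 465) in the high set (log2 change -1.34 ± 0.30, adjusted p = 0.00203). Both slow genes overlapped between the sets. Of the fast-twitch contraction list 3 of 12 were lower and 0 higher (median -0.75), and 5 of 12 without D5000 animal 6. MYL1, the fast essential light chain, stood at 1317 to 8596 CPM (median 6342) in the low set and 9463 to 32634 (median 19545) in the high set (log2 change -1.78 ± 0.32, adjusted p = 0.000322), without overlap. TNNT3, the fast troponin T, did not pass the test (log2 change -0.12 ± 0.34, adjusted p = 0.834) and changed sign without control animal 14 (0.041). Within the giant sarcomere and triad genes 5 of 12 were lower and 1 higher (median -0.59). NEB, nebulin of the thin filament, stood at 773 to 2629 CPM (median 1191) in the low set and 2257 to 4099.7 (median 2902) in the high set (log2 change -0.97 ± 0.28, adjusted p = 0.0113), and MYOM3, a myomesin of the M-band, had -1.82 ± 0.45. SYNE2, a giant protein of the nuclear envelope, was the 1 member that was higher (log2 change 1.71 ± 0.25, adjusted p = 5.86e-05), at 26.6 to 71.9 CPM (median 39.8) in the low set and 10.5 to 17.9 (median 14.2) in the high set. DES, desmin of the intermediate filaments, stood at 166 to 2001 CPM (median 803) in the low set and 812 to 4481 (median 2742) in the high set (log2 change -1.56 ± 0.40, adjusted p = 0.0054). In bulk tissue, fewer cells of a type and less RNA per cell cannot be told apart.

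**Figure D4:**
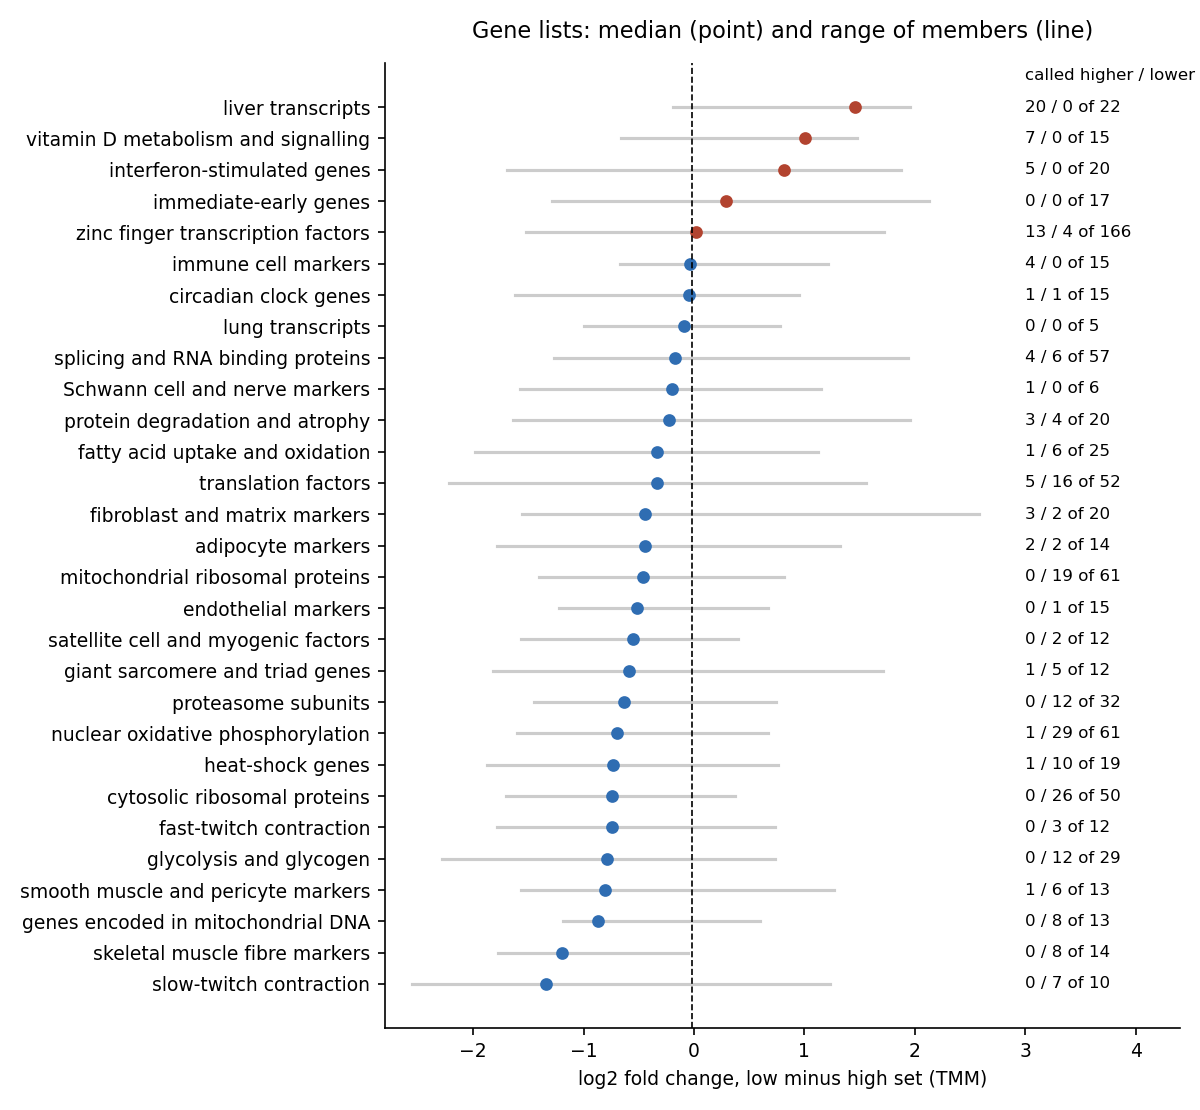
Median (point) and range (line) of the log2 fold changes, low minus high set with TMM (horizontal axis), over the tested members of 29 gene lists, with the members called higher and lower of those tested at the right and a dashed line at the median of all genes tested (-0.02). Liver transcripts stand highest (1.46) and slow-twitch contraction lowest (-1.34); with gene totals only, the medians of the fatty acid, mitochondrial ribosomal protein, translation factor, splicing, protein degradation, adipocyte, fibroblast, endothelial, Schwann cell, immune cell, circadian and lung lists turn positive.

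Transcripts of glycolysis and the respiratory chain were called lower more often than higher, against 10.6% lower and 14.9% higher over all genes tested. Of the glycolysis and glycogen list 12 of 29 were lower and 0 higher (median -0.79), and the list took 2.72% to 9.39% of gene counts in the low set (median 7.23%) and 7.96% to 15.0% in the high set (median 11.0%). GAPDH, the glyceraldehyde phosphate dehydrogenase, stood at 6329 to 33648 CPM (median 25220) in the low set and 34974 to 73751 (median 49315) in the high set (log2 change -1.16 ± 0.32, adjusted p = 0.00881), without overlap. ALDOA, the muscle aldolase, stood at 669 to 18333 CPM (median 7073) in the low set and 18063 to 57743 (median 36993) in the high set (log2 change -2.28 ± 0.46, adjusted p = 0.0009). Its lowest value, 669 CPM, came from a library of the low set, and its sets overlapped at their edges. GYS1, the muscle glycogen synthase, stood at 49.2 to 129 CPM (median 100.03) in the low set and 103 to 294 (median 217) in the high set (log2 change -1.07 ± 0.23, adjusted p = 0.00158). With gene totals alone 3 of 29 were lower and 2 higher, GAPDH had an adjusted p of 0.0766 and GYS1 of 0.135.

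Of the nuclear oxidative phosphorylation list 29 of 61 were lower and 1 higher (median -0.70), and 10 had sets that did not overlap (background 1.99%). The count was 21 without the 2 libraries of lowest share, 44 without D5000 animal 6 and 11 with gene totals alone. NDUFS6, a subunit of complex I, stood at 48.9 to 98.3 CPM (median 62.8) in the low set and 111 to 206 (median 163) in the high set (log2 change -1.21 ± 0.20, adjusted p = 0.000193). NDUFB4, of the same complex, stood at 24.4 to 72.0 CPM (median 56.2) in the low set and 104 to 167 (median 143) in the high set (log2 change -1.36 ± 0.22, adjusted p = 0.000112). Neither gene overlapped between the sets. Of the genes encoded in mitochondrial DNA 8 of 13 were lower and 0 higher (median -0.87), with 4 of 13 without the 2 libraries of lowest share, 5 of 13 without D5000 animal 25 and 1 of 13 with gene totals alone. COX3, a core subunit of complex IV, stood at 8374 to 29608 CPM (median 10964) in the low set and 20271 to 41059 (median 31219) in the high set (log2 change -1.08 ± 0.29, adjusted p = 0.00785). CYTB, the core subunit of complex III, stood at 5155 to 18163 CPM (median 7633) in the low set and 15838 to 28283 (median 18982) in the high set (log2 change -1.19 ± 0.28, adjusted p = 0.00342). ND4, a core subunit of complex I, had -0.87 ± 0.26 and an adjusted p of 0.0171, which was 0.0559 without the 2 libraries of lowest share. COX1 missed the threshold (log2 change -0.77 ± 0.29, adjusted p = 0.0525), and passed it without D5000 animal 6 (adjusted p 0.00473), without control animal 14 (0.0467) and without control animal 16 (0.0474). It also passed with diet as a term (0.0368), RLE factors (0.0484), DESeq2 (0.0117), no filter (0.048), 6 libraries against 6 (0.0059) and the trend over 24 libraries (0.01). Together the mitochondrially encoded genes took 9.38% ± 1.61 (SD, n = 8) of gene counts in the low set and 12.7% ± 2.27 in the high set (two-sided exact permutation test over 12870 splits, adjusted p = 0.0085 over 4 measures). Of the fatty acid uptake and oxidation list 6 of 25 were lower and 1 higher (median -0.33, and 0.23 with gene totals alone), against 10.6% and 14.9% of all genes, with 3 lower without the 2 libraries of lowest share. LPL, the lipoprotein lipase, stood at 12.8 to 61.7 CPM (median 34.9) in the low set and 51.5 to 161 (median 119) in the high set (log2 change -1.58 ± 0.30, adjusted p = 0.000574), and DECR1, a reductase for unsaturated fatty acids, was the higher member (log2 change 1.12 ± 0.24, adjusted p = 0.00142).

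Genes for protein synthesis were called lower more often than higher too, against 10.6% lower and 14.9% higher over all genes tested. Of the cytosolic ribosomal proteins 26 of 50 were lower and 0 higher (median -0.74), and 4 of 50 were lower and 1 higher with gene totals alone. RPLP0, the stalk protein of the large subunit, stood at 493 to 2054 CPM (median 1575) in the low set and 2336 to 3634 (median 3049) in the high set (log2 change -1.08 ± 0.27, adjusted p = 0.00424), without overlap. RPL4 and RPL14, other proteins of the large subunit, had log2 fold changes of -1.71 ± 0.28 and -1.32 ± 0.23. Ribosomal protein genes have many processed copies in mammalian genomes, so reads could be lost to the class aligned to several places, and the part of this in the result was not tested. As a share of gene counts, a scale without the TMM factors, the list had medians of 4.39% in the low set and 4.37% in the high set. Of the mitochondrial ribosomal proteins 19 of 61 were lower and 0 higher (median -0.46, and 0.033 with gene totals alone). MRPL57 stood at 28.6 to 85.9 CPM (median 52.7) in the low set and 99.1 to 159 (median 125) in the high set (log2 change -1.198 ± 0.21, adjusted p = 0.000313), and MRPL30 had -1.28 ± 0.24.

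Of the translation factors 16 of 52 were lower and 5 higher (median -0.33, and 0.20 with gene totals alone), against 10.6% and 14.9% of all genes. TPT1, the translationally controlled tumour protein, stood at 4349 to 17376 CPM (median 8801) in the low set and 17612 to 31794 (median 24765) in the high set (log2 change -1.19 ± 0.29, adjusted p = 0.00373), without overlap. EEF2, the elongation factor that moves the ribosome along, stood at 293 to 873 CPM (median 544) in the low set and 873 to 1745 (median 1099) in the high set (log2 change -1.04 ± 0.24, adjusted p = 0.00244). Its sets met at about the same value, the highest of the low set and the lowest of the high set. Of the proteasome subunits 12 of 32 were lower and 0 higher (median -0.63), and 1 lower and 3 higher with gene totals alone. PSMD12 and PSMD14, parts of the regulatory particle, had -1.45 ± 0.32 and -0.91 ± 0.23. The list of protein degradation and atrophy had 4 of 20 lower and 3 higher (median -0.23, and 0.33 with gene totals alone). Without control animal 14 it had 2 lower.

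Of the heat-shock genes 10 of 19 were lower and 1 higher (median -0.74), against 10.6% and 14.9% of all genes. With gene totals alone 3 were lower and 3 higher. CRYAB, the small heat-shock protein alphaB-crystallin, stood at 519 to 2804 CPM (median 893) in the low set and 1863 to 9201 (median 3636) in the high set (log2 change -1.62 ± 0.40, adjusted p = 0.00451). HSPB3 stood at 1.26 to 14.5 CPM (median 6.46) in the low set and 17.5 to 43.5 (median 21.6) in the high set (log2 change -1.60 ± 0.36, adjusted p = 0.00236). HSPB3 was without overlap and CRYAB was not. Immediate-early genes, which are switched on within minutes of a stimulus, had 0 of 17 called in either direction by edgeR (5 at an unadjusted p under 0.05; median 0.29, and -0.11 with 12 libraries against 12). There were 2 higher and 1 lower by DESeq2 and 4 higher without D10000 animal 20. FOS, their best known member, stood at 19.3 to 590.2 CPM (median 96.5) in the low set and 3.89 to 189 (median 21.4) in the high set (log2 change 2.13 ± 0.79, adjusted p = 0.0538). Its adjusted p was 0.00817 without D10000 animal 20, 0.0288 without control animal 23 and 0.0405 without D5000 animal 11. It also passed with DESeq2 (0.0287), a minimum count of 50 (0.0244), thinned counts (0.0473) and gene totals alone (0.038).

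Regulators of RNA and of transcription were near the median gene as lists. Of the splicing and RNA binding proteins 6 of 57 were lower and 4 higher (median -0.18, and 0.41 with gene totals alone), with 2 or 3 lower when any single library out of D5000 animals 18 and 11, D10000 animals 2, 13, 20 and 21 and control animals 14, 16 and 17 was left out. HNRNPDL, a nuclear RNA-binding protein, stood at 86.1 to 198 CPM (median 97.8) in the low set and 214 to 352 (median 280.5) in the high set (log2 change -1.27 ± 0.21, adjusted p = 0.000176). SRSF11, a splicing factor of the SR family, stood at 60.4 to 183 CPM (median 112) in the low set and 21.1 to 83.7 (median 42.5) in the high set (log2 change 1.38 ± 0.29, adjusted p = 0.00111). Of the zinc finger transcription factors 13 of 166 were higher and 4 lower (median 0.01, of either sign across settings), and 7 lower without control animal 3 or without D5000 animal 6. These shares lay below the 14.9% and 10.6% of all genes. Of the circadian clock genes 1 of 15 was higher and 1 lower (median -0.04, and 0.58 with gene totals alone). CRY2, a repressor of the clock, was lower, at 16.3 to 71.0 CPM (median 29.8) in the low set and 54.9 to 164 (median 105) in the high set (log2 change -1.63 ± 0.29, adjusted p = 0.000278). RORA, a nuclear receptor that drives BMAL1, was higher, at 60.8 to 202 CPM (median 137) in the low set and 63.0 to 99.9 (median 73.3) in the high set (log2 change 0.95 ± 0.22, adjusted p = 0.00237).

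Because the study's diets differed in vitamin D3, its pathway was read against the share as well. Of the vitamin D metabolism and signalling list 7 of 15 were higher and 0 lower (median 1.00), against 14.9% and 10.6% of all genes. With diet as a term, and also without the 2 libraries of lowest share, 5 of 16 were higher. PDIA3, a disulfide isomerase of the endoplasmic reticulum that also binds vitamin D at the membrane, stood at 32.2 to 183 CPM (median 91.3) in the low set and 32.2 to 45.8 (median 38.99) in the high set (log2 change 1.42 ± 0.26, adjusted p = 0.000353). NCOA2, a coactivator of nuclear receptors, stood at 17.7 to 66.8 CPM (median 26.1) in the low set and 9.35 to 18.5 (median 13.3) in the high set (log2 change 1.47 ± 0.30, adjusted p = 0.000873). Both overlapped between the sets, and 2 further higher members, GC and CYP27A1, are also members of the liver list. The list took 0.0711% to 0.217% of gene counts in the low set and 0.0465% to 0.0767% in the high set. VDR, the vitamin D receptor, had too few counts to be tested.

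Of the interferon-stimulated genes 5 of 20 were higher and 0 lower (median 0.82), with 14.9% of all genes called higher. The count was 8, 9 and 10 without D10000 animal 30, control animal 14 and D5000 animal 6, and 3 without the 2 libraries of lowest share. IFIH1, the viral RNA sensor MDA5, stood at 18.3 to 56.2 CPM (median 30.4) in the low set and 5.42 to 15.7 (median 9.68) in the high set (log2 change 1.87 ± 0.31, adjusted p = 0.000139). RSAD2, the antiviral enzyme viperin, stood at 16.2 to 58.5 CPM (median 31.4) in the low set and 6.24 to 12.4 (median 11.1) in the high set (log2 change 1.76 ± 0.28, adjusted p = 0.000102). Both had sets that did not overlap. Immune cell markers had 4 of 15 higher and 0 lower (median -0.03, and 0.58 with gene totals alone), against 14.9% and 10.6% of all genes. By direction, 7 of the 15 were higher and 8 lower. PTPRC, the pan-leukocyte antigen CD45, stood at 43.8 to 147 CPM (median 80.2) in the low set and 21.1 to 60.0 (median 34.4) in the high set (log2 change 1.204 ± 0.25, adjusted p = 0.0011). CD14, the endotoxin co-receptor of monocytes, stood at 50.7 to 162 CPM (median 78.8) in the low set and 20.8 to 81.8 (median 29.7) in the high set (log2 change 1.21 ± 0.28, adjusted p = 0.0027). Summed, the immune markers took 0.0257% to 0.0862% of gene counts in the low set and 0.0186% to 0.0588% in the high set. The blood cell and haemoglobin genes took 0.0534% to 0.231% and 0.0208% to 0.0784%, and 1 of 3 tested was higher. Their part in the results above was not tested.

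Markers of the other cells of muscle moved in few members. Adipocyte markers had 2 of 14 higher and 2 lower (median -0.44, and 0.074 with gene totals alone), near the 14.9% and 10.6% of all genes. Both higher members, RBP4 and ACACA, act outside fat cells too: RBP4, the retinol carrier, is also in the liver list (log2 change 1.27 ± 0.28, adjusted p = 0.00183), and ACACA makes malonyl-CoA for fatty acid synthesis (log2 change 1.32 ± 0.32, adjusted p = 0.0037). ADIPOQ, adiponectin, a hormone made by fat cells, was not called (log2 change -0.42 ± 0.55, adjusted p = 0.625), at 1.85 to 36.8 CPM (median 15.2) in the low set and 5.44 to 64.8 (median 14.1) in the high set. Fibroblast and matrix markers had 3 of 20 higher and 2 lower (median -0.44, and 0.12 with gene totals alone), near the same shares of all genes, and 6 lower without D5000 animal 6 and 4 lower without D10000 animal 13. By direction, 13 of 20 members were lower and 7 higher. COL1A1, a collagen chain, was lower without passing the edgeR test (log2 change -0.65 ± 0.31, adjusted p = 0.13). FBN1, fibrillin, stood at 2.28 to 31.5 CPM (median 8.59) in the low set and 0.0864 to 3.54 (median 2.09) in the high set (log2 change 2.58 ± 0.59, adjusted p = 0.00236). Libraries of the high set held only 1 to 36 counts of FBN1. FN1, the fibronectin that the liver also secretes into plasma, stood at 42.3 to 128 CPM (median 76.5) in the low set and 22.3 to 53.8 (median 26.4) in the high set (log2 change 1.45 ± 0.25, adjusted p = 0.000205).

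Among called members of the vessel wall lists, all but 1 were lower, with 10.6% of all genes tested called lower and 14.9% higher. DES, described above with the fibre genes, is a lower member of both the smooth muscle list and the satellite cell list. Smooth muscle and pericyte markers had 6 of 13 lower and 1 higher (median -0.81), and 0 lower with gene totals alone. CNN1, calponin, stood at 8.22 to 45.7 CPM (median 19.2) in the low set and 29.1 to 94.6 (median 52.6) in the high set (log2 change -1.26 ± 0.34, adjusted p = 0.00727). Endothelial markers had 1 of 15 lower and 0 higher (median -0.52, and 0.066 with gene totals alone). That 1 gene was ESAM, an adhesion molecule of endothelial junctions, at 7.58 to 28.3 CPM (median 17.9) in the low set and 30.2 to 77.8 (median 40.7) in the high set (log2 change -1.23 ± 0.28, adjusted p = 0.0021). Schwann cell and nerve markers had 1 of 6 higher and 0 lower (median -0.20, and 0.33 with gene totals alone), and satellite cell and myogenic factors 2 of 12 lower and 0 higher (median -0.55). Lung transcripts had 0 of 5 called in either direction by edgeR or DESeq2 (0 at an unadjusted p under 0.05 by edgeR; median -0.09, and 0.54 with gene totals alone). They took 0.00568% to 0.0616% of gene counts in the low set and 0.00253% to 0.0242% in the high set.

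Libraries of the low set were flatter in their most abundant genes and had fewer genes at low counts. The 10 most abundant genes of a library took 25.5% ± 6.16 (SD, n = 8) of gene counts in the low set and 35.1% ± 5.01 in the high set (two-sided exact permutation test, adjusted p = 0.0085 over 4 measures). Identifiers without a gene symbol took 13.8% ± 1.65 and 11.2% ± 1.98 (exact permutation test, adjusted p = 0.0151). After thinning to 3310507 gene counts, 10427 to 11597 genes had at least 1 count in the low set and 11673 to 12174 in the high set, with means of 11023 ± 445 and 11877 ± 178 (exact permutation test, adjusted p = 0.000622). The order turned for genes with at least 5 counts, with means of 10067 and 9762 (exact permutation test, p = 0.132, not past the threshold). Genes with 1 to 4 counts, a window chosen after these results had been seen, numbered 380 to 1579 in the low set (median 912.5) and 1849 to 2506 in the high set (median 2073.5). The libraries of the low set also differed more among themselves in thinned counts, taken relative to the library total without TMM factors. With 0.5 added to each count, the median SD on the log2 scale was 0.906 in the low set and 0.599 in the high set. The SD was larger in the low set for 82.0% of 9998 genes. The share itself was also spread more widely in the low set (SD 10.0 points, against 2.76 in the high set). How far this wider range, or the lack of TMM factors, enters the difference in SD was not tested.

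**Figure D5:**
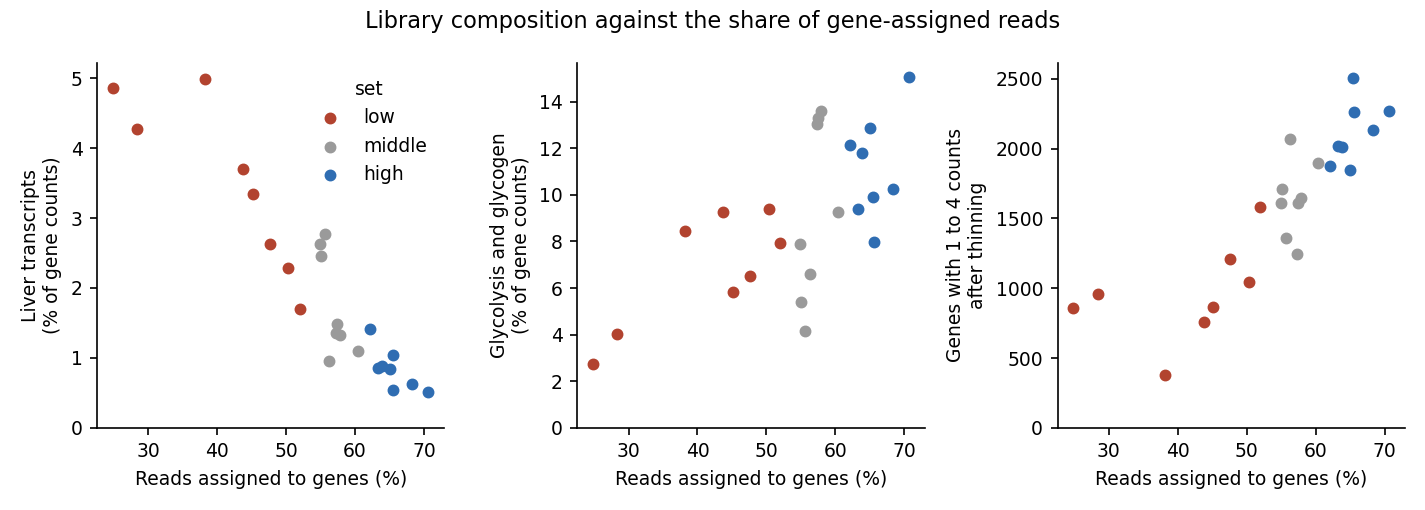
Liver transcripts (% of gene counts), the glycolysis and glycogen list (% of gene counts) and the number of genes with 1 to 4 counts after thinning, each against the share of reads assigned to genes (%), with 1 point per library coloured by set. Liver transcripts fall from 4.99% to 0.509% and the genes with 1 to 4 counts run from 380 to 2506, while the glycolysis list spreads widely in the middle libraries.

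The 8 middle libraries, which the comparison does not use, spanned shares of 54.9% to 60.3% only. Within them edgeR called 0 of 11579 genes along the share (smallest adjusted p 0.437, 645 genes at an unadjusted p under 0.05). At a lower share 5204 of the 10009 genes tested in both fits had a higher level there. This held for 859 of the 1499 genes higher in the low set, and 581 of the 1066 lower genes had a lower level, not far from the division over all genes. Among the liver transcripts 20 of 22 went the same way, with a median change of 1.40 on the log2 scale per 10 percentage points of lower share, beside 0.07 over all genes tested. Of the nuclear oxidative phosphorylation list 41 of 61 were higher at a lower share in the middle libraries (median 0.43). This was opposite to the comparison of the sets. By fitted direction 10 of 10 slow-twitch genes were higher there too (median 0.98), but D5000 animal 24 stood apart. It held 2.04% of gene counts in the slow-twitch list, beside a median of 0.372% over the middle libraries. The mean of the slow-twitch list had a Pearson r of 0.05 and a Spearman rho of 0.36 with the share there. The cytosolic ribosomal proteins had 17 of 50 higher (median -0.44), and the glycolysis and glycogen list 11 of 29 (median -0.83). Where these middle libraries joined the sets, as 12 libraries against 12, several lists had fewer calls. The genes called lower were then 0 of the slow-twitch contraction list, 0 of the genes encoded in mitochondrial DNA, 11 of the nuclear oxidative phosphorylation list and 15 of the cytosolic ribosomal proteins, while the liver transcripts had 21 of 22 higher. Among the named genes COX3, CRYAB, CYTB, HSPB3, LPL, MRPL30, MYBPC1, MYOM3, ND4, PIGC, RPL4, TCAP and TNNT1 missed the threshold there (adjusted p 0.0571 to 0.509). With the share taken without the 10 most abundant genes, CNN1 (0.0661), TCAP (0.102) and ND4 (0.214) missed it, and 3 of the genes encoded in mitochondrial DNA were called lower. No relation of a list mean with the share passed in the middle libraries, with the smallest adjusted p at 0.186 over 29 lists (exact permutation test, n = 8).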

How the data were processed

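Transcript ends were counted in muscle of 25 pigs, 1 library per pig, with groups and animal numbers from the labels. Per the labels' protocols the library kit was Lexogen QuantSeq FWD, and the submitters' processing notes name FastQC. Which aligner, read counter, genome build and annotation release were used is not given in the sources used here. Deposited values are raw counts of reads for each Ensembl gene, with no sign of normalization by the authors, followed by summary lines that stayed out of library sizes and tests. The lines for reads left unaligned or of low quality were 0, so shares do not cover such reads, and spike-ins held 1 read in all. Of 25880 identifiers 25879 were analysed, 14856 with a symbol from a table of Ensembl gene names. No coordinates and no sequences were used.

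Genes were filtered with filterByExpr (minimum count 10, minimum total 15) over the low and high sets, scaled by TMM and fitted with glmQLFit and glmQLFTest (robust) of edgeR 4.0.16 in R 4.3.3, with p-values adjusted by Benjamini-Hochberg over all 10028 genes (8884 with a symbol) at a threshold of 0.05. Separate pigs are the replicates. CPM are counts scaled to library size with TMM factors, log2 changes (given ± SE) have a prior count of 0.125 and a median SE of 0.36, and the common biological coefficient of variation was 0.562. Library measures were compared with two-sided exact permutation tests. Lists are described by counts and medians, with no set test, and the 29 of 34 lists with at least 5 tested members are given. Named genes were the 10 with the smallest p in each direction, the 2 with the smallest p of each list and a fixed group, and not every gene so picked is described (1 among the 10 lower genes is not reported here). The members, lists and tests were chosen with earlier results of these data known. Apart from the fixed group, named genes were picked by the p of the same comparison, so a lack of overlap among them is no separate support. MB, EEF1A1, MALAT1, NEAT1, TTN and HSPA1A matched no identifier. Tested on simulated data of 9915 genes, the edgeR step called 84% and 86% of changes of -2 and 2 (log2) and 14% and 36% of changes of -1 and 1. Alternatives were another scaling, DESeq2 1.42.0, other filters, set sizes and shares, covariates for diet and liver transcripts, a trend over 24 libraries, leaving out each library and, added after seeing the data, leaving out the 2 lowest libraries, thinning and gene totals alone.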

Additional observations from a re-analysis of the deposited data

Results flagged for a closer look

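Within a set of 8 libraries, a value is given here where the highest library stood off from the next by more than the critical gap of Dixon's test for 8 samples, taken relative to the set's whole range. For normally distributed values, chance exceeds this gap in about 1 of 20 groups. Percentages and CPM were taken without logs, and a skew to high values makes gaps at the top more frequent. Library measures, read classes, lists and named genes were all screened in both sets without correction for their number. Some of the gaps below are thus to be awaited by chance. In each case it was the highest library of its set. In the low set, control animal 3 stood off with translation factors at 3.71% of gene counts and protein degradation and atrophy genes at 1.04%. It also had smooth muscle and pericyte markers at 0.312%, satellite cell and myogenic factors at 0.338% and HNRNPDL at 198 CPM. DES is in both of these marker lists, so their values are not separate. In this library DES had 18406 counts, out of 22230 in the smooth muscle list and 24061 in the satellite cell list. D5000 animal 18, the library with the lowest share, stood off with lung transcripts at 0.0616% of gene counts, ABCG5 at 63.5 CPM, FBN1 at 31.5 CPM and PTPRC at 147 CPM. D5000 animal 6, the library of the low set nearest to the middle, stood off with 3 muscle and mitochondrial genes, TNNT3 at 22508 CPM, COX1 at 25771 CPM and CYTB at 18163 CPM. Control animal 23 had MYOM3 at 39.3 CPM, and D10000 animal 7 had CD14 at 162 CPM.

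In the high set, D10000 animal 13 stood off with cytosolic ribosomal proteins at 6.49% of gene counts and protein degradation and atrophy genes at 1.07%. It also had immune cell markers at 0.0588% and satellite cell and myogenic factors at 0.533%. DES made up 51862 of the 60484 counts of its satellite cell list. Control animal 16 had nuclear oxidative phosphorylation genes at 1.72%, fatty acid uptake and oxidation genes at 0.353% and HSPB3 at 43.5 CPM. D10000 animal 30 had identifiers without a symbol at 15.48%, PIGC at 297 CPM and ESAM at 77.8 CPM. D10000 animal 20 had immediate-early genes at 0.253%, FOS at 189 CPM and DECR1 at 27.4 CPM. D10000 animal 26 had APOC3 at 733 CPM and FN1 at 53.8 CPM.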

How the results depend on the processing

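Over 31 alternatives, genes higher in the low set numbered 1107 to 2038 and genes lower 753 to 1416, except in the cases given next. With the liver list as a covariate 0 were higher and 0 lower, with gene totals alone 2989 and 156, and in the trend over 24 libraries 2086 were lower. Leaving out 1 library at a time gave 1241 to 1676 higher and 871 to 1368 lower. The difference in the share of the 10 most abundant genes was -5.38 points with 12 libraries against 12 (permutation test over random splits, p 0.0725). The difference in genes detected turned to 304.25 at a minimum of 5 counts. Medians of lists that changed sign were, with the liver covariate, 0.0020 for fast-twitch contraction, 0.076 for giant sarcomere and triad genes, 0.011 for mitochondrial ribosomal proteins and 0.13 for satellite cell and myogenic factors, and with gene totals alone 0.23 for fatty acid uptake and oxidation, 0.033 for mitochondrial ribosomal proteins, 0.20 for translation factors, 0.41 for splicing and RNA binding proteins, 0.33 for protein degradation and atrophy, 0.074 for adipocyte, 0.12 for fibroblast and matrix, 0.066 for endothelial and 0.33 for Schwann cell and nerve markers. Schwann cell and nerve markers had 0.026 with no filter, and immediate-early genes -0.11 with 12 against 12. Medians within 0.1 of 0 (zinc finger, immune cell, circadian and lung lists) took either sign across settings. Of named genes, the liver covariate turned APOA1 (-0.63), APOC3 (-1.86), CD14 (-0.20), RBP4 (-0.11) and TNNT3 (0.52). TNNT3 also turned with the share taken without the 10 most abundant genes (0.24), without the 2 lowest libraries (0.018) and with gene totals alone (0.39), as did ADIPOQ with gene totals alone (0.21). Leaving out 1 library gave TNNT3 changes of -0.46 to 0.041. Over 76 named genes, 2223 of 2355 alternatives kept direction and side of the threshold. Except in the fits with gene totals or fewer libraries, where the construction changes the scale or the number, the cause was not tested. No paired analysis was possible because animal numbers are not shared between the sets. The shallowest library has 3310507 gene counts, which limits genes with few counts.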

Other observations

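Animal 27 of D10000, which the rule left out, had a share of 53.5%, between the low set and the middle libraries. Adipocyte markers took 3.10% of its gene counts, against 0.0677% to 0.235% in the other 24 libraries. Its skeletal muscle fibre markers took 1.92% (8.19% to 27.8% in the others) and its cytosolic ribosomal proteins 8.69% (3.36% to 6.49%). Liver transcripts took 0.520% of its gene counts.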
